A study of Mus musculus with 32 samples.

Results

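The genes described here encode the chaperones that work beside HSP90: the HSP70 proteins and their HSP110 relatives, the HSP40 (J-domain) proteins, the small heat shock proteins, the chaperonins and the BAG proteins. Members were chosen by a rule on gene names, which uses no measured value, though with earlier results of these data known. The rule took protein-coding genes whose mouse symbol begins with Hspa, Hspb, Dnaja, Dnajb, Dnajc, Cct or Bag and a number. It also took Hsph1, Hspd1 and Hspe1. The rule found 82 genes among 37310 counted genes, namely 13 HSP70 and HSP110 genes, 45 HSP40 genes, 8 small HSP genes, 10 chaperonin genes and 6 BAG genes. A further 5 rows matched by name but are not typed as protein-coding in GENCODE vM21, among them the chaperonin subunit Cct6a, and the subunit Tcp1 carries a name that the rule does not match. Both subunits are given below beside the members.

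RNA-seq counts came from biopsies of brain tumors of 2 transgenic mouse models of Group 3 medulloblastoma, a malignant childhood tumor of the cerebellum, with 6 GMYC tumors and 8 GTML tumors. GMYC mice carry the tetracycline transactivator tTA under the Glt1 promoter and a TRE-driven MYC transgene, and GTML mice are the matching model driven by MYCN. In both, the Tet-OFF transgene is on in Glt1-expressing cells of the hindbrain unless doxycycline is given, so the oncogene differs between models while the driver of its expression is shared. The study asked how MYC-driven and MYCN-driven tumors of this kind differ, and it tested an HSP90 inhibitor, onalespib, against them. Age and sex of the animals were not in the labels used here. Summed counts of Y-linked genes were 4 to 16 in GTML tumors 2, 3, 5 and 8 and 1102 to 3378 in all 6 GMYC tumors and GTML tumors 1, 4, 6 and 7, so this difference between animals goes in part with the model. The biopsies hold stromal and blood cells besides tumor cells, and a lower count in bulk tissue cannot tell fewer cells of a type from less RNA per cell.

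HSP70 proteins bind exposed hydrophobic stretches of unfolded chains and release them in cycles of ATP hydrolysis. HSP40 proteins bring clients and start the hydrolysis through their J domain, while HSP110 and BAG proteins exchange the nucleotide so that the client is let go. The chaperonins are double rings that enclose a client: HSPD1 with its lid HSPE1 in mitochondria, and TRiC, built from the CCT subunits, in the cytosol, where actin and tubulin are its best known clients. Small HSPs hold unfolding proteins without ATP. Many of these genes are induced by HSF1 through heat shock elements when proteins unfold or HSP90 is inhibited, and some are known targets of MYC.

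The sequence through which HSF1 acts can be read in the reference promoters of those genes. The 3 stretches below are RefSeq promoter sequence in build GRCm38.p6, shown because they hold the heat shock elements of the stress-inducible HSP70 pair, of the mitochondrial chaperonin pair and of Dnaja4, the member whose values did not overlap between models. Capitals mark heat shock element dyads, that is, a GAA and a TTC unit in either order with 2 bases between them. The first stretch, read on the minus strand, is identical in Hspa1a (chr17:34972227-34972286) and Hspa1b (chr17:34959309-34959368). The second, on the plus strand at chr1:55088033-55088092, lies between Hspe1 and Hspd1, which start head to head and share it. The third, on the plus strand at chr9:54699456-54699525, belongs to 1 of the 2 start sites listed for Dnaja4.
Hspa1a and Hspa1b: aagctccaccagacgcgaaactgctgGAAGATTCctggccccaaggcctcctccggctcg
Hspe1 and Hspd1: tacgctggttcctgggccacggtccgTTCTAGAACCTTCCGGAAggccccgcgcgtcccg
Dnaja4: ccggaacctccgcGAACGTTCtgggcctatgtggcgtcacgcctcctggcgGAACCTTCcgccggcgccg

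Promoter windows from 250 bases before to 50 bases after a start site were at hand for 68 of the 82 members, 88 windows in all. A dyad was found in 22 of them (25.0%), against 15.1% of all 32851 windows of the same length. Units repeated 3 in a row, the longer form of the element, were found in 6 (6.82%) against 0.603%, all of them in windows of Hspd1, Hspe1, Hsph1 and Dnajb6. Both windows of Hsph1 overlap and hold the same element, as do both of Dnajb6, and Hspd1 and Hspe1 share theirs. The share of windows thus counts the same element more than once. Among the chaperonin genes, the windows of Cct2, Cct5, Cct8l1, Hspd1 and Hspe1 held a dyad. The E-box CACGTG, the letters MYC and MYCN are known to bind, was in 7 member windows (7.95%) against 7.15% of all windows, those of Hspd1, Hsph1, Dnajb9, Dnajc1, Dnajc8 and Dnajc16. Both motifs were searched on both strands, and a match is a description of the letters, not of a bound site. Dyads are counted also where they lie inside a longer element.

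Library totals ran from 6218378 to 7279811 counts in GMYC tumors and from 4602294 to 6317404 in GTML tumors, and the members took 0.731% to 0.803% and 0.647% to 0.767% of them. Otx2, a transcription factor that marks this tumor type, was present in every tumor (237 to 378 CPM, that is, counts relative to the scaled size of the library). GTML tumor 2 was the lowest of the GTML tumors for photoreceptor genes that go with this identity: Crx at 97.6 CPM (298 to 404 CPM in the other 7), Impg2 at 107 CPM (439 to 748 CPM) and Nrl at 18.7 CPM (66.8 to 160 CPM, with 5.8 to 129 CPM in GMYC tumors). Other genes of this identity did not follow: tumor 2 had the highest Npr3 of all tumors, at 176 CPM (6.32 to 62.4 CPM in the other GTML tumors). Eomes, too low to be tested, was also highest there, at 3.42 CPM. Kcna1, at 107 CPM, was inside the range of the other GTML tumors (22.5 to 112 CPM). Tumor 2 also stood apart for several members, among them Bag1, Bag2, Dnajb5 and Hspb8, and results without it are given where they matter. The study set 1 GTML tumor aside as an outlier, and which one is not given in the sources used here. The libraries also fell on 2 sides of a gap in the share of counts from small nucleolar RNA, with GMYC 1 to 4 and GTML 1 and 2 above 0.3% and the other 8 tumors below it. Each side is a consecutive run in the list of samples and holds tumors of both models. Among markers of other cells, 4 of 6 erythroid genes were called higher in GMYC tumors (66.7% against 9.71% of all genes). The other 2, Alas2 and Slc4a1, had log2 fold changes above 0 (0.51 and 0.87) and were not called. The 6 genes summed to 53.9 to 178 CPM in GMYC and 42 to 136 CPM in GTML tumors. Of 8 astrocyte genes 0 were called, with 2 at an unadjusted p under 0.05 and a median log2 fold change of -0.79. Cd68 of microglia and macrophages, Olig2 of oligodendrocytes and Neurod1 of cerebellar neurons were called higher in GMYC tumors (10%, 12.5% and 14.3% of their lists). These lists did not move as a whole: 3 of 10, 3 of 8 and 2 of 7 tested genes had fitted values above 0. Mog, also of oligodendrocytes, was called higher in GTML tumors (12.5% of its list). Of 8 immediate early genes, which respond within minutes to stress and handling, Fos and Dusp1 were called higher in GTML tumors (25% against 11.5% of all genes). Fitted values were above 0 for 5 of the 8 and below it for 3. The part of these cells and states in the values of the members was not tested. Some GTML tumors were sequenced for earlier work. The labels used here give no date of sequencing, so a difference of date cannot be told apart from the model.

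Levels between genes were compared as TPM, which divides each count by the length of the transcript and scales every tumor to the same sum. The chaperonins and the constitutive HSP70s were the most abundant members. Over the 14 tumors, Cct5 had a mean of 373 ± 60.8 TPM (SD), Cct3 351 ± 46.8 TPM and Cct2 350 ± 55.5 TPM. These 3 subunits lay within 1 SD of each other, so their order is not set apart by the spread between tumors. The length chosen for a gene also moves these levels: with the union of all its annotated exons, an alternative added after seeing the data, Cct5 had 346 TPM, Cct2 371 TPM, Hspd1 360 TPM and Cct3 151 TPM. Hspa9, the mitochondrial HSP70, followed with 304 ± 33 TPM, then Hspd1 with 283 ± 47.1 TPM and Cct8 with 253 ± 51 TPM. Hspa8, the constitutive cytosolic HSP70, had 251 ± 35.2 TPM. Hspa5, the HSP70 of the endoplasmic reticulum, had 180 ± 17.1 TPM.

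By the length of the principal transcript, the most abundant HSP40 genes were Dnajc7, which also binds HSP90, with 178 ± 27.9 TPM, Dnajc8 with 161 ± 31 TPM and Dnajc11, a protein of the mitochondrial membranes, with 159 ± 38.7 TPM. With exon-union lengths Dnaja2 came first at 207 TPM, ahead of Dnajc8 at 123 TPM, Dnajc7 at 118 TPM and Dnajc11 at 65.2 TPM, so the order within this family depends on the length used. Among the BAG genes Bag6, which guards newly made membrane proteins, had 188 ± 37.6 TPM and Bag1 183 ± 34.2 TPM. Small HSPs were much lower. Hspb11, also a part of the intraflagellar transport machinery, had 47.1 ± 11 TPM and Hspb6 26.2 ± 9.48 TPM, an order that turned with exon-union lengths (19.2 and 21.6 TPM). Hspa1b and Hspa1a, the HSP70s that appear after stress, averaged 13.7 and 6.9 TPM. The abundant chaperonins also have many counts per base of transcript. Cct5 came to 1.24 counts per base in its highest tumor, equal to Actb at 1.24 and close to Hsp90ab1 at 1.23, and how duplicate reads were treated is not given in the sources used here. Whether this bears on the values of such genes was not tested.

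**Figure D1:**
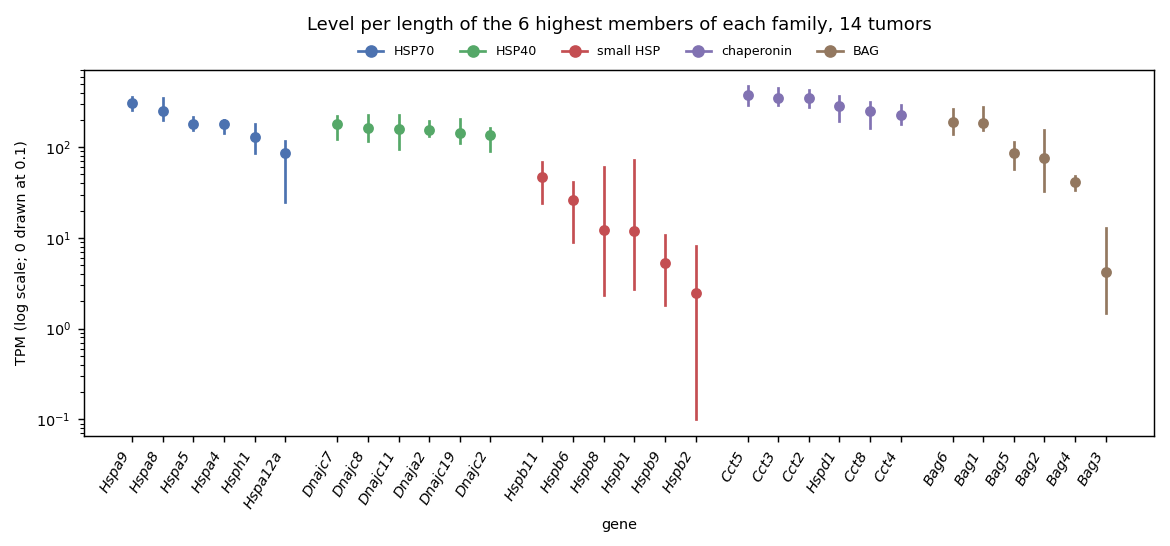
Level per transcript length (TPM, log axis) of the 6 highest members of each family over all 14 tumors. Points are means and bars run from the lowest to the highest tumor. Chaperonins and constitutive HSP70s lie above 80 TPM on average, while the small HSPs lie below 50 TPM on average and spread most between tumors.

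Between the models, 78 of the 82 members had enough counts to be tested (CPM above 1 in at least 3 tumors). The other 4, Dnajb8, Dnajc22, Dnajc5b and Dnajc5g, stayed below 1 CPM in every tumor. At an adjusted p under 0.05 (edgeR quasi-likelihood test, Benjamini-Hochberg over all 21024 genes tested), 9 members were higher in GMYC tumors (11.5% of those tested, against 9.71% of all genes) and 5 were higher in GTML tumors (6.41% against 11.5%). In either direction this was 17.9% of the members against 21.2% of all genes, so the share of members that changed was near that of the table as a whole. At an unadjusted p under 0.05 there were 32 of the 78 members, where 37.8% of all genes passed. Counts at an unadjusted p from this same fit, given below, are to be read against that share. The median log2 fold change of GTML over GMYC was -0.09 over the members and 0.04 over all genes tested. Under the thresholds used in the study (a log2 fold change of more than 1 either way at an adjusted p under 0.01), Hspa2 was higher in GMYC tumors and Dnaja4 in GTML tumors, where 1.1% and 2.11% of all genes passed. The study set them on a limma fit with 1 GTML tumor set aside, and here they are set on the edgeR fit of all tumors. With limma-voom on all tumors Dnaja4 did not pass them (adjusted p = 0.0132). In edgeR without GTML tumor 2, Bag2 passed them as well (-1.49, adjusted p = 0.00109). Dnaja4 was the only member whose values did not overlap between all 6 GMYC and all 8 GTML tumors, against 2.48% of all genes apart in the GMYC direction and 2.14% in the GTML direction.

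The members called higher in GMYC tumors were Hspa2, Hspa4l, Hspa8, Cct2, Cct5, Cct8, Dnajc9, Dnajc14 and Bag2. Those called higher in GTML tumors were Dnaja4, Dnajb5, Hspa12b, Hspb7 and Bag6. Without GTML tumor 2, 15 members were called higher in GMYC tumors (19.2% against 15.1% of all genes) and 8 in GTML tumors (10.3% against 15.6%). All 14 calls above were among them. Tumor 2 was singled out in part by values of the members, so these counts are no separate support. Among the tumors of lower snoRNA share (2 GMYC and 6 GTML) 7 and 3 members were called, against 6.69% and 6.66% of all genes. Those higher in GMYC tumors were Bag2, Cct2, Cct5, Cct8, Dnajc14, Hspa2 and Hspa8, all called in the main fit. Those higher in GTML tumors were Dnajb14, Dnajc1 and Dnajc6, so no member called higher in GTML tumors in the main fit was called on this side. Among those of higher share (4 GMYC and 2 GTML) 0 members were, against 0.0106% and 0% of all genes. On that side 14 members had an unadjusted p under 0.05, and the share of all genes at that p was not counted. DESeq2 on all tumors called 11 and 9 members, against 12.2% and 15.8% of all genes. With a term for snoRNA share, 7 and 3 members were called, against 6.77% and 6.79% of all genes. Of the calls above, Hspa2, Hspa4l, Cct2, Cct8, Dnajc14 and Dnaja4 stayed called with it. Hspa8, Cct5, Dnajc9, Bag2, Dnajb5, Hspa12b, Hspb7 and Bag6 did not (edgeR adjusted p = 0.0508 to 0.0997). Dnajc28, Dnajc7, Dnajb9 and Dnajc27 were called with that term and not in the main fit. With a term for the presence of Y-linked counts, 3 members (Hspa2, Hspa4l and Cct8) were called higher in GMYC tumors, against 3.62% of all genes, and 1 (Dnajb5) in GTML tumors, against 6.14%. Of the other calls, Dnaja4 and Cct2 then had adjusted p = 0.0584 and 0.0705. An interaction of model and side, fitted over all 14 tumors with edgeR, was called for 0 of 78 members and 0 of 21024 genes. At an unadjusted p under 0.05 there were 14 of these members and 3180 of these genes.

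**Figure D2:**
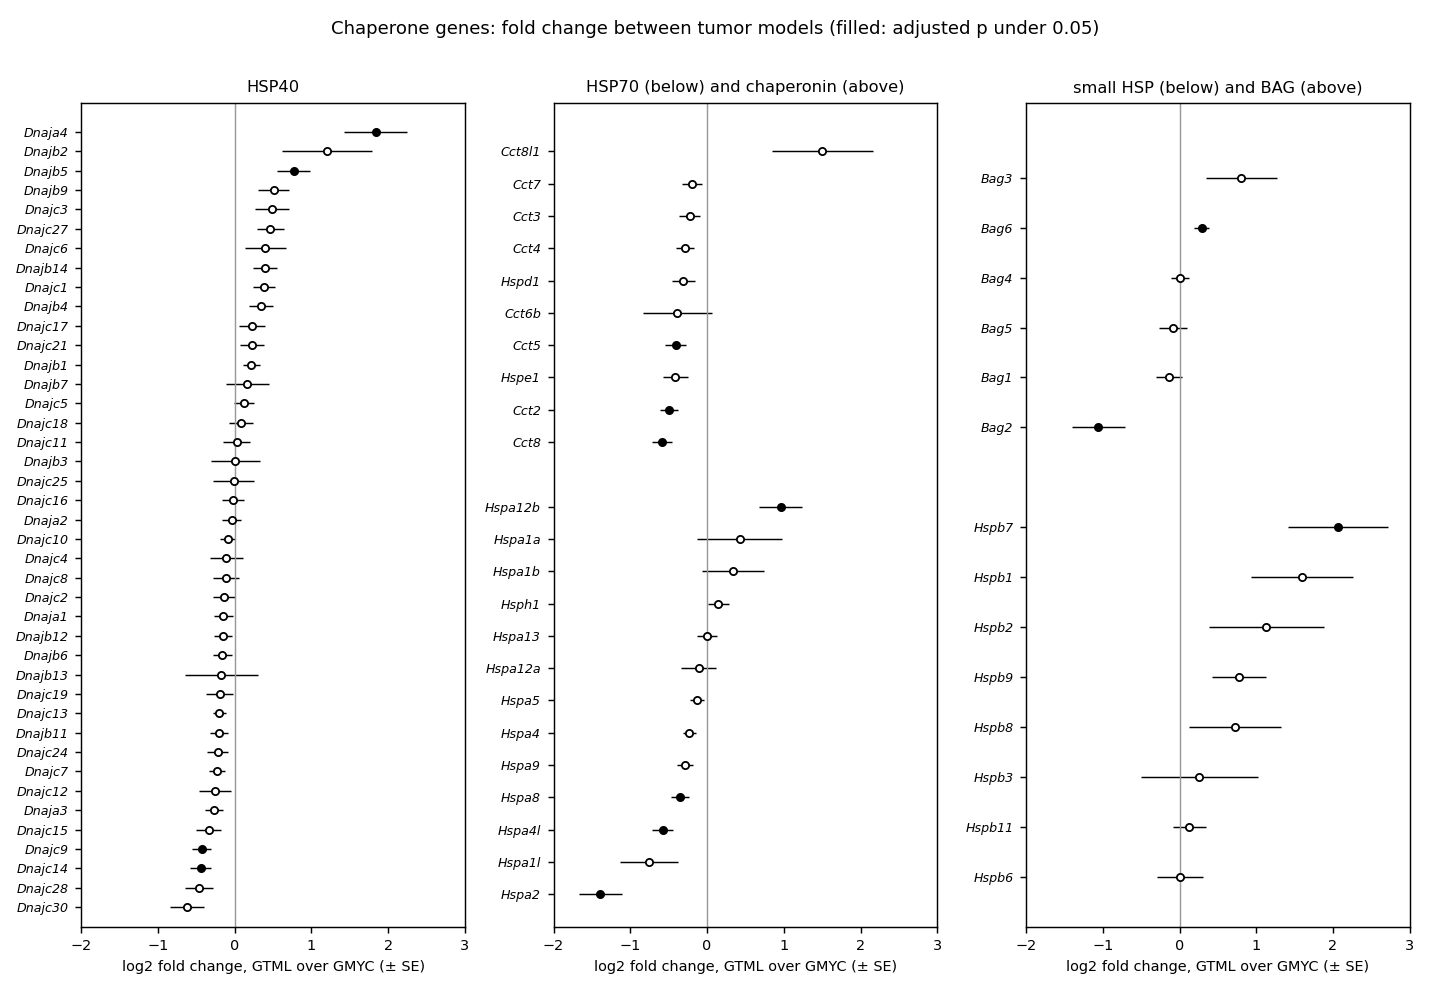
Log2 fold change of GTML over GMYC tumors for the 78 tested members, with bars of ± 1 SE from the edgeR fit of 6 GMYC and 8 GTML tumors, filled where the adjusted p is under 0.05. All 6 abundant CCT members lie to the left of 0, the small HSPs to the right, and the HSP40 genes on both sides.

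All 6 abundant CCT members, subunits of TRiC, had lower fitted values in GTML tumors, and 3 of them, Cct2, Cct5 and Cct8, passed the test as higher in GMYC tumors. Over the 10 chaperonin genes the median log2 fold change was -0.35, against 0.04 for all genes, with 3 called higher in GMYC (30% against 9.71% of all genes) and 0 in GTML tumors, and 6 of 10 at an unadjusted p under 0.05 against 37.8% of all genes. Cct8, subunit theta, ran from 241 to 320 CPM in GMYC tumors (median 295) and from 136 to 262 CPM in GTML tumors (median 180). All but 1 of the GTML tumors lay below the lowest GMYC tumor, the exception being tumor 2. Its mean was 289 ± 26.7 CPM (SD, n = 6) in GMYC and 192 ± 42.9 CPM (n = 8) in GTML tumors, a log2 fold change of -0.59 ± 0.13 (SE; edgeR adjusted p = 0.00979).

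Cct2, subunit beta, lay between 279 and 349 CPM in GMYC tumors (median 316) and between 185 and 311 CPM in GTML tumors (median 203). Here 7 GTML tumors fell below every GMYC tumor, and GTML tumor 1, at 311 CPM, lay among them. The log2 fold change was -0.49 ± 0.12 (adjusted p = 0.0125). Cct5, subunit epsilon, ran from 253 to 348 CPM in GMYC tumors (median 322) and from 193 to 335 CPM in GTML tumors (median 205), with a log2 fold change of -0.41 ± 0.14 (adjusted p = 0.0412) that held in 5 of 14 fits that left out 1 tumor (largest adjusted p = 0.0886). Its GTML tumors divided: tumors 1, 2 and 4 had 268, 335 and 275 CPM, inside the GMYC range, and the other 5 lay between 193 and 213 CPM, below it.

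The same 3 GTML tumors were the highest for Cct3, the subunit gamma, at 274, 368 and 298 CPM, while the other 5 lay between 200 and 227 CPM. The 6 GMYC tumors lay between 258 and 308 CPM (median 297), and the difference did not pass the test with all tumors (log2 fold change -0.23 ± 0.13, adjusted p = 0.228). Cct4, subunit delta, had a log2 fold change of -0.29 ± 0.12 (adjusted p = 0.09) and Cct7, subunit eta, of -0.20 ± 0.13 (adjusted p = 0.26). The subunits outside the rule had like values: Cct6a, subunit zeta, lay at 224 to 289 CPM in GMYC and 151 to 296 CPM in GTML tumors (log2 fold change -0.32 ± 0.14, adjusted p = 0.101), and Tcp1, subunit alpha, at 231 to 302 and 176 to 309 CPM (-0.32 ± 0.13, adjusted p = 0.0826). For both, 5 GTML tumors lay below every GMYC tumor.

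The mitochondrial chaperonin had values of the same kind with more spread. Hspd1 lay between 227 and 357 CPM in GMYC tumors (median 304) and between 164 and 352 CPM in GTML tumors (median 226), a log2 fold change of -0.31 ± 0.15 (adjusted p = 0.141). Hspe1, its lid, lay between 55.1 and 95.3 CPM (median 72.1) and between 38.2 and 76.3 CPM (median 53.8), a log2 fold change of -0.41 ± 0.16 (adjusted p = 0.0731). The models overlapped for both genes, with 4 of 8 GTML tumors below the lowest GMYC tumor. The rarely transcribed paralogs Cct6b and Cct8l1, known from testis, stayed at or below 3.64 CPM and did not pass the test.

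Without GTML tumor 2, 7 of the 10 chaperonin genes passed the test as higher in GMYC tumors (70% against 15.1% of all genes). They were Cct2, Cct3, Cct4, Cct5, Cct8, Hspd1 and Hspe1. Cct8l1 passed in the other direction. Tumor 2 was singled out in part by values of the members, and it is 1 of the 2 highest GTML tumors for each abundant chaperonin gene. Leaving it out thus lowers the GTML means of these genes by construction, and the added calls are no separate support. The means of the 7 remaining GTML tumors were 182 ± 34.7 CPM for Cct8, 231 ± 39 CPM for Cct3 and 224 ± 39.6 CPM for Hspd1, and the log2 fold changes became -0.66, -0.33 and -0.41 (adjusted p = 0.00238, 0.0283 and 0.0262). Cct8, Dnajc9 and Bag2 then no longer overlapped between the models in the GMYC direction and Dnaja4 in the GTML direction, against 4.25% and 4.42% of all genes. Within the sides of the snoRNA gap, the chaperonin median was -0.57 among tumors of lower snoRNA share, where Cct2, Cct5 and Cct8 were called, and -0.03 among those of higher share, where 0 members and 2 of 18921 genes were. On that side the log2 fold changes of Cct3, Cct5, Cct7 and Hspd1 were above 0, at 0.16, 0.03, 0.19 and 0.13, and that of Cct8 was -0.24. The interaction for Cct2 was 0.56 (edgeR adjusted p = 0.246) and did not pass the test. The part of snoRNA share in these values was not tested further, and model and side are partly confounded.

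**Figure D3:**
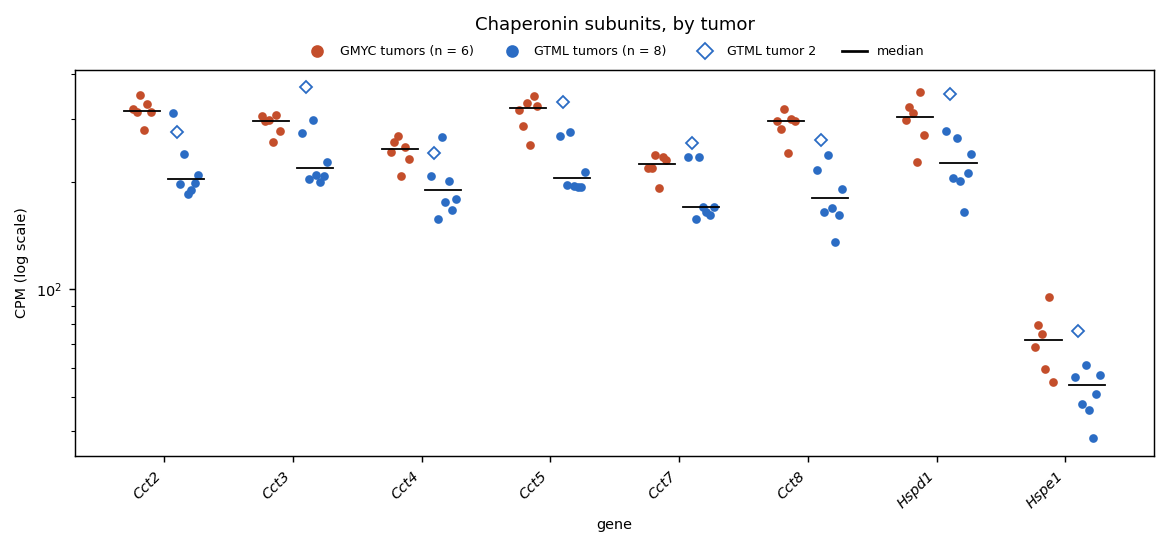
CPM (log axis) of the 8 abundant chaperonin genes in each tumor, GMYC at the left and GTML at the right of each gene, with a bar at the median and GTML tumor 2 as an open diamond. Medians are lower in GTML tumors for all 8 genes, and tumor 2 is 1 of the 2 highest GTML tumors for each.

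Of the genes that help TRiC and were not members, Pdcl and Pfdn4 were called higher in GMYC tumors. Pdcl works with TRiC on G protein beta subunits, and Pfdn4 is a subunit of the prefoldin complex that hands over nascent actin and tubulin. They were 2 of the 10 genes on that list (20% against 9.71% of all genes), with 0 called higher in GTML tumors. Their log2 fold changes were -0.48 ± 0.14 (adjusted p = 0.0244) and -0.76 ± 0.21 (adjusted p = 0.0226).

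Of the HSP70 and HSP110 genes, 3 of 13 were called higher in GMYC (23.1% against 9.71% of all genes) and 1 in GTML tumors (7.69% against 11.5%), with a median log2 fold change of -0.13. Hspa2, an HSP70 best known from spermatogenesis, ran from 15.6 to 44.1 CPM in GMYC tumors (median 26.2) and from 6.79 to 16.5 CPM in GTML tumors (median 10.5). All but 1 of the GTML tumors lay below the lowest GMYC tumor. Its log2 fold change of -1.39 ± 0.28 (adjusted p = 0.00622) was the largest among members higher in GMYC tumors, and it stayed past the test when any single tumor was left out.

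Hspa4l, an HSP110-type exchange factor, ran from 315 to 427 CPM in GMYC tumors (median 380) and from 186 to 338 CPM in GTML tumors (median 237). Here 6 GTML tumors lay below all GMYC tumors, and tumors 3 and 8, at 338 and 333 CPM, lay within their range. The log2 fold change was -0.58 ± 0.14 (adjusted p = 0.0116), and it also held without any 1 tumor. Its relative Hspa4 had a log2 fold change of -0.23 ± 0.09 (adjusted p = 0.0657), and Hsph1, the third member of the HSP110 group, of 0.14 ± 0.13 (adjusted p = 0.444), with GMYC tumors at 129 to 207 CPM and GTML tumors at 142 to 256 CPM.

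Hspa8, the constitutive HSP70 that folds new proteins and uncoats clathrin vesicles, ran from 221 to 329 CPM in GMYC tumors (median 258) and from 162 to 261 CPM in GTML tumors (median 191). The models overlapped, with 5 GTML tumors below the lowest GMYC tumor. Its log2 fold change was -0.35 ± 0.12 (adjusted p = 0.046), but the call held in 4 of 14 fits that left out 1 tumor, with a largest adjusted p of 0.116. Hspa9 had a log2 fold change of -0.29 ± 0.10 (adjusted p = 0.0545) and Hspa5 of -0.13 ± 0.09 (adjusted p = 0.326). A processed pseudogene, Hspa9-ps1, had counts of its own (24.2 to 86.5 CPM) and was itself called higher in GMYC tumors (-0.95 ± 0.22, adjusted p = 0.00979). Another, Cct3-ps1, reached 47 CPM and was not called (adjusted p = 0.0858). Dnaja1-ps, at 3.09 CPM or below, was called higher in GTML tumors (1.43 ± 0.38, adjusted p = 0.0181). How reads were divided between these copies and the parent genes is not given in the sources used here, so the parents' values are uncertain by an unknown amount.

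Hspa12b, an atypical HSP70 known from endothelium, ran from 5.05 to 9.7 CPM in GMYC tumors (median 7.48) and from 6.82 to 23.5 CPM in GTML tumors (median 14.3), where 7 of 8 tumors were above every GMYC tumor. The log2 fold change was 0.96 ± 0.28 (adjusted p = 0.0259). Endothelial markers moved with it in part: 2 of 7, Kdr and Esam, were called higher in GTML tumors (28.6% against 11.5% of all genes). Of the 7 fitted values 5 were above 0 and 2 below it, those of Cldn5 (-0.67) and Cdh5 (-0.07), neither called. The summed CPM of the 7 was 70.4 to 187 in GMYC and 138 to 288 in GTML tumors. Kdr alone averaged 31.4 CPM in GMYC and 79.4 CPM in GTML tumors. The part of endothelial cells in the difference was not tested. Hspa12a, its neuronal relative, had 178 to 228 CPM in GMYC tumors and 57.7 to 237 CPM in GTML tumors, the lowest being tumor 2.

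The stress-inducible HSP70s varied widely within each model. Hspa1b ran from 5.2 to 24.6 CPM in GMYC tumors (median 12.7) and from 5.04 to 25.4 CPM in GTML tumors (median 14), and Hspa1a from 1.75 to 12.7 CPM (median 6.62) and from 1.07 to 19.8 CPM (median 6.78). The models overlapped for both genes. For Hspa1a 2 GTML tumors lay above and 1 below all GMYC tumors, and for Hspa1b 1 above and 1 below. The log2 fold changes of 0.34 ± 0.41 and 0.43 ± 0.55 (adjusted p = 0.566 and 0.594) were no larger than about 1 SE. The coding sequences of the pair are 99.4% identical, so the split of counts between them is uncertain, and the summed CPM of 7.28 to 37.3 in GMYC and 6.11 to 45.3 in GTML tumors is the safer value.

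**Figure D4:**
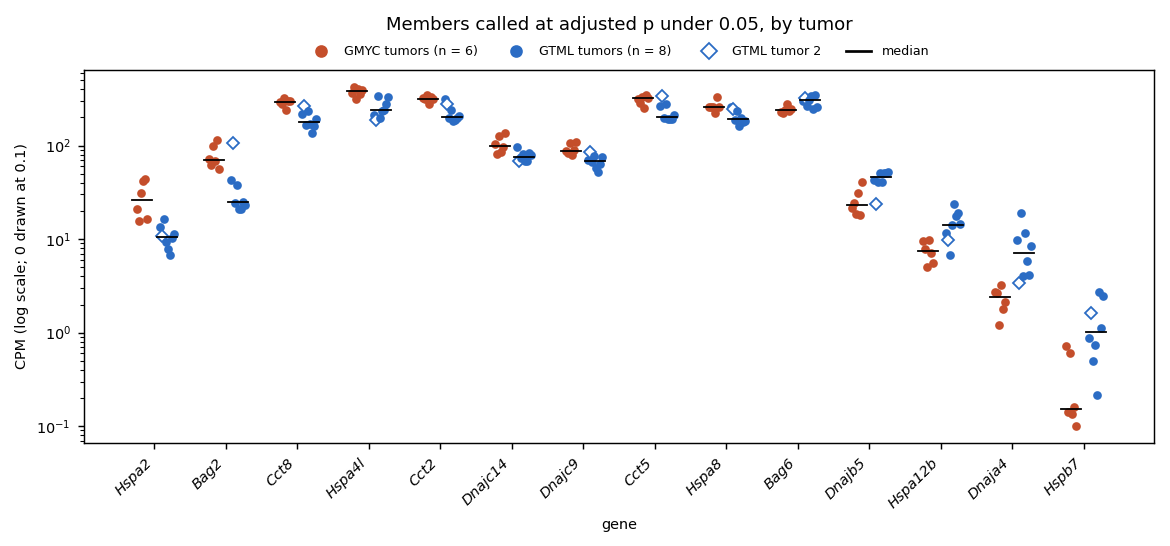
CPM (log axis) in each tumor of the 14 members called at an adjusted p under 0.05, ordered from the lowest to the highest log2 fold change of GTML over GMYC, with bars at the medians and GTML tumor 2 as an open diamond. Dnaja4 is the single gene whose GTML tumors all lie above the GMYC tumors, and GTML tumor 2 is apart from the other GTML tumors for Bag2 and Dnajb5.

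Of the 41 tested HSP40 genes, 2 were called higher in GMYC and 2 in GTML tumors (4.88% each, against 9.71% and 11.5% of all genes). At an unadjusted p under 0.05 there were 15, near the 37.8% of all genes, and the median log2 fold change was -0.04. Dnaja4, a cytosolic HSP40 inducible by heat, ran from 1.22 to 3.23 CPM in GMYC tumors (median 2.4) and from 3.42 to 18.8 CPM in GTML tumors (median 7.11). No GTML tumor overlapped the GMYC tumors, although tumor 2, at 3.42 CPM, was just above the highest of them. The log2 fold change was 1.84 ± 0.41 (adjusted p = 0.00903), and it stayed past the test without any 1 tumor but not with the Y-linked term. It rests on 8 to 24 counts in the GMYC and 21 to 113 counts in the GTML libraries.

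Dnajb5, another cytosolic HSP40, ran from 18.4 to 41 CPM in GMYC tumors (median 23.1) and from 23.9 to 52.6 CPM in GTML tumors (median 46.4), with a log2 fold change of 0.77 ± 0.22 (adjusted p = 0.0227). Tumor 2 was the lowest GTML tumor, and the other 7 were at 40.7 CPM or more. Dnajb2, whose neuronal forms steer clients to degradation, had a larger value, 1.20 ± 0.59, that did not pass the test (adjusted p = 0.146). It was uneven in both models, at 1.41 to 12.3 and 3.96 to 28.9 CPM.

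Dnajc9, which handles histones H3 and H4 during replication, ran from 79.7 to 110 CPM in GMYC tumors (median 88.4) and from 52.8 to 85.5 CPM in GTML tumors (median 68). All but tumor 2 of the GTML tumors lay below the lowest GMYC tumor, and the log2 fold change was -0.43 ± 0.12 (adjusted p = 0.0244). Dnajc14, an HSP40 of the endoplasmic reticulum membrane, ran from 81.9 to 137 CPM (median 99.4) and from 67.8 to 96.5 CPM (median 76.1), a log2 fold change of -0.44 ± 0.13 (adjusted p = 0.0292). Dnajc30 and Dnajc28, the HSP40s with the lowest fitted values, gave -0.62 ± 0.22 and -0.47 ± 0.18 and did not pass (adjusted p = 0.0566 and 0.0709).

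Of the 10 HSP40s of general folding, which include Dnaja4, Dnajb5 and Dnajb2, 2 were called higher in GTML tumors (20% against 11.5% of all genes). In GMYC tumors 0 were (9.71% of all genes). At an unadjusted p under 0.05 there were 4 of the 10, near the 37.8% of all genes, and the median log2 fold change was 0.28. Dnajb1, the main HSP40 partner of the inducible HSP70s, had 58.6 to 77.9 CPM in GMYC tumors (median 64.6) and 61.6 to 84.8 CPM in GTML tumors (median 77.7). Here 4 of 8 GTML tumors lay above all GMYC tumors, and the log2 fold change of 0.22 ± 0.11 did not pass the test (adjusted p = 0.154). Dnaja1 gave -0.15 ± 0.13 (adjusted p = 0.405) and Dnajb4 0.34 ± 0.15 (adjusted p = 0.111).

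By compartment, 0 of 8 members of the endoplasmic reticulum list passed the test, where 21.2% of all genes did (3 at an unadjusted p under 0.05, median -0.01). That list does not hold Dnajc14, the HSP40 of the endoplasmic reticulum membrane that was called higher in GMYC tumors. For mitochondria 0 of 10 passed it (5 at an unadjusted p under 0.05), with a median log2 fold change of -0.30 and 9 of 10 fitted values lower in GTML tumors. DESeq2 called Hspa9 and Dnajc30 of the mitochondrial list higher in GMYC tumors and Dnajb9 and Dnajc1 of the endoplasmic reticulum list higher in GTML tumors.

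All 8 small HSPs had fitted values at or above 0, with a median of 0.75. Of them, 1 passed the test as higher in GTML tumors (12.5% against 11.5% of all genes). Under at least 1 other setting Hspb3, Hspb6, Hspb8 and Hspb11 came out below 0. Hspb7, a small HSP of heart and muscle, ran from 0 to 0.718 CPM in GMYC tumors (median 0.151) and from 0.215 to 2.72 CPM in GTML tumors (median 1.01), a log2 fold change of 2.07 ± 0.65 (adjusted p = 0.0359). These are 0 to 5 counts in the GMYC and 1 to 16 counts in the GTML libraries, the models overlapped, and the call held in 7 of 14 fits that left out 1 tumor. Hspb1, the heat-inducible HSP27, ran from 1.27 to 2.7 CPM in GMYC tumors (median 1.61) and from 0.912 to 22.7 CPM in GTML tumors (median 2.96), with the high end set by tumor 6. It did not pass the test (1.60 ± 0.66, adjusted p = 0.0905).

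Hspb8, which works with BAG3 in the clearing of damaged proteins, had 4.53 to 8.53 CPM in GMYC tumors (median 6.38) and 1.5 to 44.9 CPM in GTML tumors (median 6.33), the highest being tumor 2 and the next 9.17 CPM. Its log2 fold change was 0.73 ± 0.60 with all tumors (adjusted p = 0.386) and -0.19 without tumor 2. Pericyte and smooth muscle markers, cells rich in small HSPs, summed to 84.8 to 397 CPM in GMYC and 95.6 to 494 CPM in GTML tumors, with 0 of 7 called (0 at an unadjusted p under 0.05 and a median of 0.36). Their part in the small HSP values was not tested.

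Of the BAG genes, Bag2 was called higher in GMYC and Bag6 higher in GTML tumors (16.7% each, against 9.71% and 11.5% of all genes). The median over all 6 was -0.04. Bag2, an exchange factor that also restrains the ubiquitin ligase CHIP, ran from 55.9 to 115 CPM in GMYC tumors (median 70.2) and from 21.1 to 106 CPM in GTML tumors (median 24.8). Tumor 2, at 106 CPM, lay inside the GMYC range, and the other 7 lay at or below 42.7 CPM, under every GMYC tumor. The log2 fold change was -1.06 ± 0.35 with all tumors (adjusted p = 0.0404) and -1.49 without tumor 2 (adjusted p = 0.00109). The call held in 5 of 14 fits that left out 1 tumor, with a largest adjusted p of 0.095. It was -1.75 among tumors of lower snoRNA share (adjusted p = 0.0128) and -0.01 among those of higher share, which include tumor 2.

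Bag6 ran from 223 to 279 CPM in GMYC tumors (median 240) and from 244 to 349 CPM in GTML tumors (median 304), a log2 fold change of 0.29 ± 0.10 (adjusted p = 0.0447) that held in 5 of 14 fits that left out 1 tumor. Bag3, the stress-inducible member, had 1.7 to 4.72 CPM and 1.33 to 13.3 CPM (0.81 ± 0.47, adjusted p = 0.214), again highest in tumor 2.

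Read by regulation in place of family, the 13 members known as HSF1-inducible did not move together. Hspa4l and Hspa8 were called higher in GMYC tumors (15.4% against 9.71% of all genes) and 0 of the 13 higher in GTML tumors. There were 5 fitted values below 0 and 8 above it, with a median of 0.22. Dnaja4, inducible by heat but not on this list of 13, was called higher in GTML tumors. The windows of these genes held a dyad in 61.1% of 18 cases, against 15.1% of all windows, and some of the 18 overlap. All 4 heat shock factors measured were themselves called, where 21.2% of all genes were. Hsf1, the main activator of the response, ran from 40.6 to 53.7 CPM in GMYC and from 51 to 90.9 CPM in GTML tumors (log2 fold change 0.55 ± 0.15, adjusted p = 0.0186). Hsf4 and Hsf5, at 6.46 CPM or below, were also higher in GTML tumors (1.52 ± 0.37 and 1.38 ± 0.38, adjusted p = 0.013 and 0.0204), while Hsf2 was higher in GMYC tumors (-0.40 ± 0.11, adjusted p = 0.0219). The mRNA of a factor says nothing about its activation, which occurs on the protein.

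**Figure D5:**
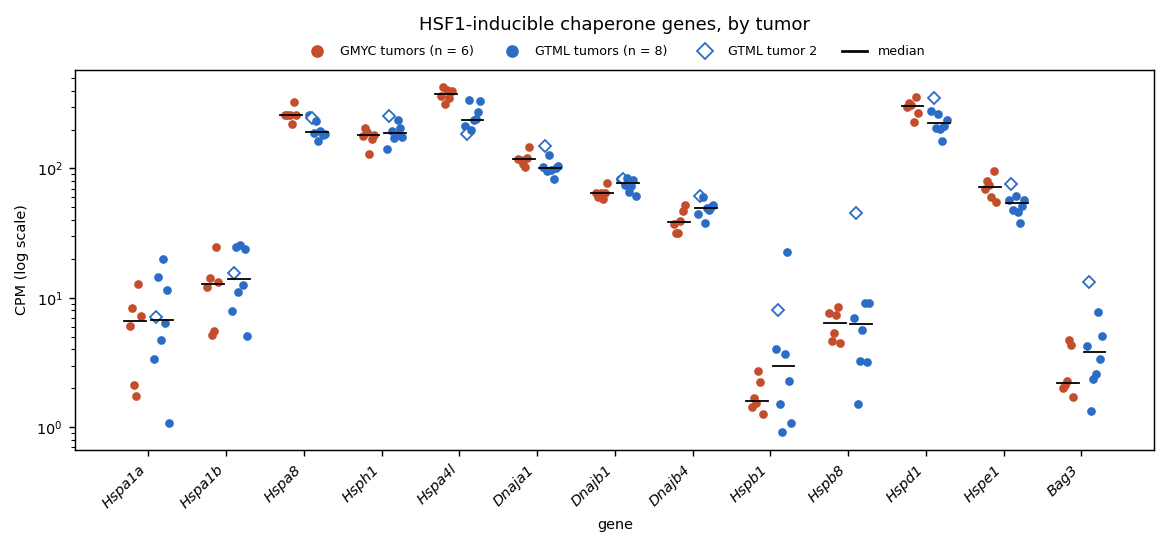
CPM (log axis) of the 13 HSF1-inducible members in each tumor, GMYC at the left and GTML at the right of each gene, with bars at the medians and GTML tumor 2 as an open diamond. Hspa1a and Hspa1b spread widely within both models, and tumor 2 is the highest GTML tumor for Hspb8 and Bag3.

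HSP90 itself and its co-chaperones, which take clients from HSP70, were the partner list with most calls. Of 20 genes, 6 were called higher in GMYC tumors (30% against 9.71% of all genes) and 0 in GTML tumors, with a median log2 fold change of -0.21. They were Hsp90aa1, the inducible HSP90 (-0.38 ± 0.12, adjusted p = 0.0357), Cdc37, which brings kinases (-0.49 ± 0.10, adjusted p = 0.0071), Ptges3, the co-chaperone p23 (-0.68 ± 0.17, adjusted p = 0.0128), Chordc1, St13 and the mitochondrial HSP90 Trap1. Hsp90ab1, the constitutive form, gave -0.06 ± 0.09 (adjusted p = 0.672), with GMYC tumors at 401 to 496 CPM and GTML tumors at 355 to 492 CPM. Of 12 tested other partners of HSP70, such as the exchange factors of mitochondria and of the endoplasmic reticulum, 0 passed the test (3 at an unadjusted p under 0.05).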

How the data were processed

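RNA from frozen biopsies of 6 GMYC and 8 GTML tumors was sequenced on an Ion Proton instrument. The authors aligned reads to mm9 with STAR and Bowtie and deposited featureCounts counts per gene against GENCODE; the submitters' processing notes name STAR 2.4.0, Bowtie2 2.2 and Subread 1.5.2. Whether counting used strand, multiply mapped reads or duplicates is not given in the sources used here. A second deposited table of cell lines holds 18 columns whose names match no label, and it was not analysed here, nor was the onalespib treatment. Members and gene lists were chosen with earlier results of these data known.

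Gene symbols and principal transcript lengths came from GENCODE vM21 (32620 of 37310 genes, 87.4%), and promoter windows from RefSeq (GRCm38.p6). Genes with CPM above 1 in at least 3 tumors were tested in edgeR 4.0.16 (R 4.3.3) with TMM scaling and a quasi-likelihood fit of GTML against GMYC, and a gene was called at an adjusted p under 0.05. CPM values use TMM-scaled library sizes, TPM values transcript length, and log2 fold changes are GTML over GMYC. On simulated counts with the same libraries (20566 genes), 72 of 100 genes changed by a log2 of 1 and 97 of 100 changed by a log2 of 2 were recovered, with 5 unchanged genes called. The changed genes were drawn only from genes with higher mean CPM, so these rates do not cover members of low CPM or smaller changes.

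Named genes were the 4 markers of these families (Hspa8, Hspa1b, Dnajb1 and Cct3), every chaperonin, the HSF1-inducible members, the 3 most abundant members of each family and its 2 largest fold changes each way, all called members, and Tcp1, Hsf1, Hsp90aa1, Hsp90ab1 and called genes among the partners. Alternatives were DESeq2 1.42.0, limma-voom (limma 3.58.1), no TMM, DESeq2 size factors, other filters, protein-coding genes alone, a replicate block, terms for snoRNA share and for Y-linked genes, each side of the snoRNA gap, thinned counts, genes under 0.2 counts per base and each tumor left out. Added after seeing the data were the interaction of model and side, Cct6a as a member and TPM from the union of exons. Tumors of a model differed by more than sampling noise (lowest chi-square per degree of freedom 6.23), so no library was counted as a repeat. The labels do not say that each biopsy came from a separate animal, and p-values measure the spread between these samples.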

Additional observations from a re-analysis of the deposited data

Results flagged for a closer look

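Of 86 groups of tumors examined (43 named members in 2 models), 8 held a tumor whose distance from the nearest other was above Dixon's critical value for its group, where chance gives about 1 in 20, or 4.3. GTML tumor 2 accounts for 4 of them. It had 106 CPM of Bag2 (next GTML tumor 42.7 CPM), 122 CPM of Bag1 (next 83 CPM), 44.9 CPM of Hspb8 (next 9.17 CPM) and the lowest Dnajb5 of the GTML tumors at 23.9 CPM (next 40.7 CPM). GTML tumor 6 had 22.7 CPM of Hspb1 (next 8.13 CPM). In the GMYC tumors, tumor 5 had 329 CPM of Hspa8 (next 260 CPM), tumor 6 had 77.9 CPM of Dnajb1 (next 65 CPM) and tumor 4 had 12.3 CPM of Dnajb2 (next 4.67 CPM).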

How the results depend on the processing

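The main fit called 9 members higher in GMYC and 5 in GTML tumors. In the GTML direction DESeq2 called 9 (15.8% of all genes), a term for snoRNA share 3 (6.79%), and tumors of lower snoRNA share 3 (6.66%). A term for Y-linked genes left 3 and 1 members (3.62% and 6.14% of all genes), genes under 0.2 counts per base 3 and 1 (43 members tested; 6.77% and 7.68% of all genes), and tumors of higher snoRNA share 0 and 0. Leaving out single tumors gave 4 to 15 and 1 to 8, the highest both without GTML tumor 2. The count of members higher in GMYC tumors fell by more than 1.5 times without GMYC tumor 1 (5), GMYC tumor 3 (4), GTML tumor 5 (5) or GTML tumor 6 (5), and that of members higher in GTML tumors without GMYC tumors 1 (3), 3 (2), 5 (1) or 6 (2) or GTML tumors 5 (3) or 7 (2). Hspa2, Hspa4l, Dnaja4, Cct2 and Cct8 stayed called in all 14 such fits (of these, Dnaja4 and Cct2 were not called with the Y-linked term), and the other 9 called members in 4 to 12.

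Family medians were -0.13 (HSP70), -0.04 (HSP40), 0.75 (small HSP), -0.35 (chaperonin) and -0.04 (BAG). Among tumors of higher snoRNA share they were 0.02 for HSP70, 1.47 for small HSPs, -0.03 for chaperonins and 0.34 for BAG genes. The small HSP median was 0.4 with limma-voom, 0.45 with filterByExpr, 0.45 with the Y-linked term and 0.05 among tumors of lower snoRNA share. The chaperonin median was 0.36 among genes under 0.2 counts per base, which keep its rare paralogs and not the abundant subunits.

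Signs of named members changed for values that were not called under the alternative. Among tumors of higher snoRNA share these were Hspa8 (0.04), Dnaja1 (0.18), Cct3 (0.16), Cct5 (0.03), Cct7 (0.19), Hspd1 (0.13), Bag1 (0.36), Hspa5 (0.05), Dnajc8 (0.24), Bag5 (0.32) and Hspb6 (-0.38). Among tumors of lower share they were Hspa1a (-0.06), Hspa1b (-0.16), Dnajb4 (-0.01), Hspb11 (-0.09), Hspb6 (-0.03) and Hspb8 (-0.3). Hspb8 gave -0.16 with the Y-linked term and -0.19 to 0.89 in the fits without 1 tumor, the lowest without GTML tumor 2, and Hspb11 -0.06 among genes under 0.2 counts per base. Bag5 gave 0.1 with the snoRNA term. Dnajc11, near 0 throughout, gave -0.03 with limma-voom, 0 with protein-coding genes alone, -0.04 with the Y-linked term, -0.02 with the block and -0.06 to 0.1 in the fits without 1 tumor. Hspb6, near 0 in most fits, gave -0.01 without a filter, -0.03 with protein-coding genes alone, -0.19 with the snoRNA term, -0.01 with the Y-linked term, -0.01 with thinned counts, -0.21 among genes under 0.2 counts per base, and -0.12 to 0.21 in the fits without 1 tumor. Where the cause of a change is not given by the alternative's own construction, it was not tested.

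Replicate numbers of the 2 models do not pair the tumors (correlations of deviations -0.212 to 0.232 over 6 numbers). In a fit with a replicate block, GTML tumors 7 and 8 have no partner and add nothing to the comparison. With it 0 and 0 members were called, against 0.414% and 0.78% of all genes. At an unadjusted p under 0.05 there were 15 members, and the share of all genes at that p was not counted. The medians were -0.13 for HSP40 and 0.43 for small HSPs.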
